A study of Mus musculus with 8 samples.

Results

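The interferon-induced GTPases described here are 9 genes, Gbp2, Gbp3, Gbp4, Gbp6, Irgm1, Irgm2, Igtp, Iigp1 and Tgtp1, read by 12 of the 41174 probes of an Agilent mouse array. They were chosen by name, through the current or the older symbol of each probe, and all 9 were measured. Colon RNA was taken from male mice aged 21 to 24 weeks on the AIN-76A powdered diet, and each mouse had its own array. The 2 groups were 4 Mdr1a-/- mice, in which Abcb1a, the gene of a drug efflux pump, is disrupted on the FVB/N background, with a high colonic histological injury score (HIS), and 4 wild-type animals of the FVB/N strain whose HIS was low. Mice were picked for the arrays by genotype and score together, so the effects of the 2 cannot be told apart. Sample RNA carried Cy3 and was hybridised against a Cy5-labelled common reference pooled from Swiss mouse small intestine, colon, kidney, liver and fetuses. Values are log2(sample / reference), so each is relative to that pool, and a value of 0 marks equal signal in both.

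Between 71.4% and 84.9% of probes were above background on the Mdr1a-/- arrays, and between 67.0% and 86.3% on the arrays labelled FVB/N. The single probe of Abcb1a did not separate the groups (log2 fold change -0.40 ± 0.19, SE, limma adjusted p = 0.362), whereas the authors' deposited table gives -1.62 (adjusted p = 9.75e-05). The labels' protocols list the slides used, and 3 of the 4 Mdr1a-/- files but 0 of the 4 FVB/N files are on a listed slide, with Mdr1a-/- replicate 3 being the Mdr1a-/- file that is not. The second group is therefore called the arrays labelled FVB/N, and every direction given here rests on those labels. All 8 general epithelial marker genes and all 8 of colonocytes and goblet cells were above background on every array.

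Interferons, most of all interferon gamma, switch on 2 families of large GTPases in mice. Guanylate-binding proteins (GBPs) gather on the vacuoles and surfaces of intracellular microbes and help to open them. Immunity-related GTPases (IRGs) load onto the same vacuoles. Irgm1, Irgm2 and Igtp (also called Irgm3) are the regulatory IRGs, which sit on host membranes and keep the effector IRGs in check there, and Iigp1 (Irga6) and Tgtp1 (Irgb6) are effectors that attack the vacuole. In the mouse gut these GTPases are known for defence against intracellular parasites and bacteria, and Irgm1 also for a role in intestinal inflammation.

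Several symbols in the files are old and were brought up to date through accessions. The probe that the files call Gbp4 reads Gbp3, and the probe called Mpa2 reads Gbp4. Those called Mpa2l, Ifi1, Iigp2 and Tgtp read Gbp6, Irgm1, Irgm2 and Tgtp1. In RefSeq's annotation of the GRCm38.p6 assembly Gbp2 and Gbp3 are on chromosome 3, Gbp4 and Gbp6 on chromosome 5, and Irgm1, Tgtp1, Igtp and Irgm2 on chromosome 11, where Igtp and Irgm2 are next to each other among the family genes. GBPs and IRGs are families of close copies, so a probe may pick up RNA of a paralog, and Tgtp1 cannot be parted from its near-identical copy Tgtp2.

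Because the members moved together on these arrays, the DNA before their start sites was searched for the 2 elements through which interferons are known to act. The interferon-stimulated response element (ISRE) was searched as GAAA, any 2 bases and GAAA again, with TTTC in place of GAAA on the other strand, and the gamma-activated site (GAS) as TTCNNNGAA, which reads the same on both strands. RefSeq promoters (GRCm38.p6) matched 6 of the 9 members, and the windows held the 250 bases before each start site. The stretches of 120 bases next to the start site are given below on the strand of each gene, with ISRE and GAS matches in capitals. They are Gbp2 at chr3:142620543-142620662 (plus strand), the first of the 2 start sites of Gbp3 at chr3:142559924-142560043 (plus), Irgm1 at chr11:48871421-48871540 (minus), Irgm2 at chr11:58214857-58214976 (plus), Igtp at chr11:58199436-58199555 (plus) and Tgtp1 at chr11:48992247-48992366 (minus).
Gbp2: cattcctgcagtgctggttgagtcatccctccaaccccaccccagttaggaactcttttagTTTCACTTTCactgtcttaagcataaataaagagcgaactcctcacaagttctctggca
Gbp3: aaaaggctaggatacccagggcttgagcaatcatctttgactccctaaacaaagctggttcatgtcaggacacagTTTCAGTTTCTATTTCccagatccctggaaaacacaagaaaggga
Irgm1: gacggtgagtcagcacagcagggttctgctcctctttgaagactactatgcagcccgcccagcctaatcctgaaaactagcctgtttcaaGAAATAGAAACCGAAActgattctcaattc
Irgm2: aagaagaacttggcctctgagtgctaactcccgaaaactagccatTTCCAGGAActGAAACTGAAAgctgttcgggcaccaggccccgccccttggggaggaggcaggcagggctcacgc
Igtp: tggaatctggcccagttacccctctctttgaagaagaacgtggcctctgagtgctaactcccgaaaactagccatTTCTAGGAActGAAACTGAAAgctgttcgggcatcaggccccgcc
Tgtp1: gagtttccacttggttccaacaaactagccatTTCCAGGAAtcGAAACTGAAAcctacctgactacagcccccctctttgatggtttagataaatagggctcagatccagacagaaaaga

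All 6 promoters held an ISRE match, against 2.98% of the 32851 RefSeq mouse promoters searched. The second start site of Gbp3 held none. In Gbp2 the match lay 59 to 50 bases before the start site. Gbp3 and Irgm1 each held a pair of overlapping ISRE matches and no GAS match, at 45 to 30 bases before the start site in Gbp3 and at 30 to 15 bases in Irgm1. Irgm2, Igtp and Tgtp1 held a GAS match as well, which 7.02% of all promoters did, and 0.332% of promoters held both elements. In these 3 genes the GAS stood 2 bases ahead of the ISRE on the strand of the gene. That composite of both elements, searched on both strands, occurred in 5 of the 32851 promoters (0.0152%), those of Irgm2, Igtp, Tgtp1, Tgtp2 and Gm12185. The promoters of Irgm2 and Igtp also read alike around the composite, and both start sites belong to neighbouring genes, so these matches are not independent of each other. Promoters of 9 further genes of these families were searched too. Those of Gbp5, Gbp7, Gbp2b, Tgtp2 and Gm12250 held an ISRE match, and all of these but Gbp2b a GAS match. Those of Ifi47, Irgq, 9930111J21Rik1 and 9930111J21Rik2 held neither. Gbp7, with matches, and Ifi47, with none, were called higher in the test below, and Gbp5 and Gbp2b, with matches, were not. The authors' deposited table calls Gbp5 and Gbp2b higher too. A match is a run of letters and does not show that a factor binds there.

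**Figure D1:**
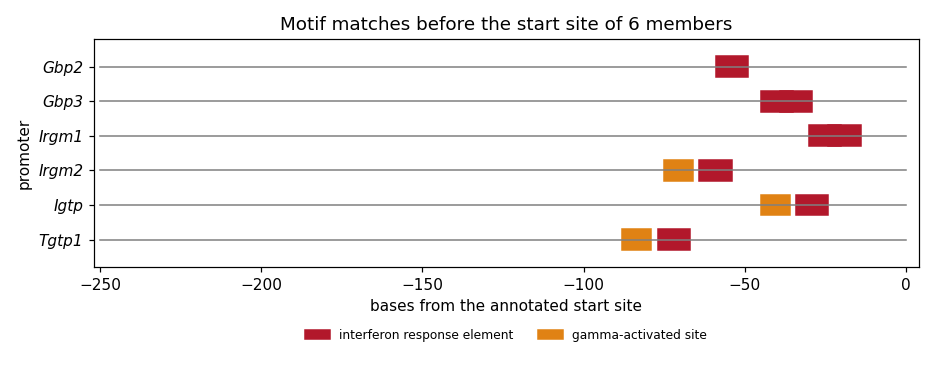
ISRE matches (red) and GAS matches (orange) in the 250 bases before the annotated start site of the 6 members whose RefSeq promoter was searched (x axis, bases from the start site). Each of the 6 has at least 1 ISRE match, and in Irgm2, Igtp and Tgtp1 a GAS match stands just ahead of it.

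All 9 GTPase genes rose in the Mdr1a-/- colon. Of the 12 probes, 10 were higher in Mdr1a-/- mice, 0 were lower (also 0 at an unadjusted p under 0.05) and 2 did not pass the test (limma, p under 0.05 after Benjamini-Hochberg adjustment over the array). Over the whole array 1.53% of probes were called higher and 1.45% lower. Read at the brightest probe of each gene, 9 of 9 members were called higher, against 2.26% of all 19440 genes called higher and 2.17% called lower. The median log2 fold change of the 9 was 2.44, against 0.03 over all genes. On 10 of the 12 probes all 4 Mdr1a-/- values lay above all 4 values of the arrays labelled FVB/N, which held for 5.31% of all probes, and 10.3% were apart in either direction. These are whole-tissue RNAs, in which more cells of a type and more RNA per cell cannot be told apart.

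Gbp2, a GBP that is anchored in membranes by a prenyl group, had log2 ratios of 1.64, 1.30, 1.10 and 1.94 in the 4 Mdr1a-/- mice, in replicate order, against 0.18, 0.65, -0.67 and -0.38 on the arrays labelled FVB/N. Its groups did not overlap, and all 4 Mdr1a-/- arrays were above the reference pool. The rise was 1.55 ± 0.30 on the log2 scale (SE, adjusted p = 0.0276 by limma), or 2.93-fold.

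Gbp3 showed the largest log2 fold change of the GBPs measured here. Its probe read 2.54, 1.79, 1.87 and 2.60 in Mdr1a-/- mice, against -0.40, -0.61, -1.91 and -1.04 on the arrays labelled FVB/N. All 4 Mdr1a-/- arrays were above the reference pool and all 4 arrays labelled FVB/N below it. The rise was 3.19 ± 0.34 on the log2 scale (SE, adjusted p = 0.00216 by limma), or 9.13-fold.

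Gbp4 belongs to the GBP cluster of chromosome 5. It had log2 ratios of 2.54, 0.79, 0.70 and 2.51 in Mdr1a-/- mice, against -1.06, -1.29, -1.97 and -1.0 on the arrays labelled FVB/N. Replicates 1 and 4 of the Mdr1a-/- mice stood well above replicates 2 and 3, while the lowest of the 4 was still above every array labelled FVB/N. The rise was 2.96 ± 0.46 on the log2 scale (SE, adjusted p = 0.0108 by limma), or 7.80-fold. The probe was above background on 4 Mdr1a-/- arrays and on 2 labelled FVB/N, so the lower level is poorly measured.

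Gbp6, of the same cluster, split the Mdr1a-/- mice in the same way. It read 1.17, -0.08, -1.03 and 1.27 in Mdr1a-/- mice, against -1.71, -1.96, -2.00 and -1.71 on the arrays labelled FVB/N. The SD was 1.10 among the 4 Mdr1a-/- arrays and 0.16 among the 4 labelled FVB/N. It rose by 2.18 ± 0.46 on the log2 scale (SE, adjusted p = 0.0379 by limma), or 4.52-fold, and it was above background on 4 and 3 arrays.

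Among the regulatory IRGs, Irgm1, which is also linked to autophagy of mycobacteria, was read by 3 probes. The brightest had log2 ratios of 0.86, -0.13, -0.41 and 0.93 in Mdr1a-/- mice, against -0.84, -1.36, -1.35 and -1.23 on the arrays labelled FVB/N. Its groups did not overlap, and it rose by 1.50 ± 0.31 on the log2 scale (SE, adjusted p = 0.0360 by limma), or 2.83-fold. The second probe gave 1.53 ± 0.34 (SE, adjusted p = 0.0473 by limma). The third, named only through an old symbol, was above background on 0 arrays, so its value of -0.02 ± 0.24 says nothing about the gene.

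Irgm2 had log2 ratios of 0.54, -0.42, -1.11 and 0.69 in Mdr1a-/- mice, against -1.83, -2.21, -2.38 and -2.38 on the arrays labelled FVB/N. Even the lowest Mdr1a-/- array lay above the highest of the other group. The rise was 2.13 ± 0.37 on the log2 scale (SE, adjusted p = 0.0174 by limma), or 4.37-fold.

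Igtp, the neighbour of Irgm2, followed almost the same pattern over the arrays. It read 0.65, -0.52, -1.09 and 0.65 in Mdr1a-/- mice, against -2.18, -2.47, -2.70 and -2.71 on the arrays labelled FVB/N. The rise was 2.44 ± 0.38 on the log2 scale (SE, adjusted p = 0.0108 by limma), or 5.41-fold. On Mdr1a-/- replicates 1 and 4 the Cy3 foreground was 58392 and 59608, above the 50000 taken here as near saturation, so the 2 highest values may be held down.

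Iigp1, an effector IRG that lies on chromosome 18, away from the other 8 members, had the smallest adjusted p of the members. Its log2 ratios were 0.60, 0.06, -0.63 and 0.72 in Mdr1a-/- mice, against -2.57, -2.76, -3.42 and -3.27 on the arrays labelled FVB/N. The gap between the groups was wider than the spread within either. The rise was 3.19 ± 0.32 on the log2 scale (SE, adjusted p = 0.00194 by limma), or 9.13-fold. Its 95% interval ran from 2.48 to 3.90. Mdr1a-/- replicates 1 and 4 were again near saturation, with a Cy3 foreground of 60825 and 59891.

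Tgtp1 was read by 2 probes of the same transcript that disagree. The brighter one had log2 ratios of 2.28, 0.46, -0.23 and 2.25 in Mdr1a-/- mice, against -1.13, -1.68, -2.60 and -1.99 on the arrays labelled FVB/N, and it rose by 3.04 ± 0.58 on the log2 scale (SE, adjusted p = 0.0250 by limma), or 8.23-fold. Its groups did not overlap, and the SD among the 4 Mdr1a-/- arrays was 1.27, the widest of the called member probes. The second probe read 0.41, 2.12, 1.46 and 1.61 in Mdr1a-/- mice, against 0.57, 2.27, -0.43 and 1.26 on the arrays labelled FVB/N. These groups overlapped, and the log2 fold change of 0.48 ± 0.55 did not pass the test (SE, adjusted p = 0.765 by limma). Its 95% interval ran from -0.75 to 1.72. The rise of Tgtp1 thus rests on 1 of its 2 probes. The mean over both probes gave 1.76 (limma adjusted p = 0.0267).

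**Figure D2:**
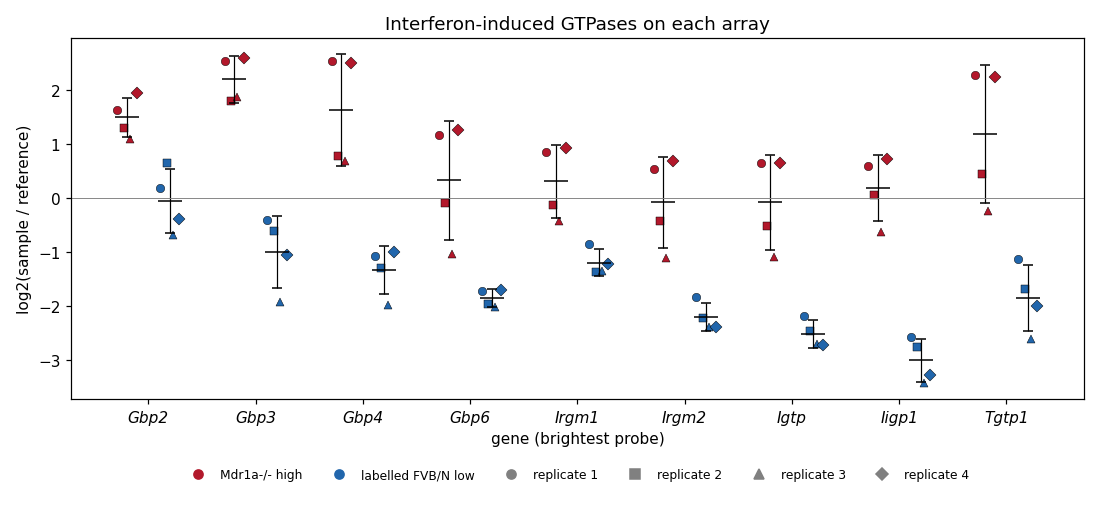
Log2(sample / reference) of the brightest probe of each GTPase on the 8 arrays, with Mdr1a-/- high mice in red and the arrays labelled FVB/N low in blue; symbols mark the replicate, long bars the mean and whiskers 1 SD (n = 4 each). No gene's groups overlap, and in each of the 9 genes replicates 1 and 4 of the Mdr1a-/- mice lie above replicates 2 and 3.

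The Mdr1a-/- mice were not alike. Averaged over the 9 genes, the log2 ratio was 1.42 in replicate 1, 0.36 in replicate 2, -0.09 in replicate 3 and 1.50 in replicate 4, against -1.28, -1.52, -2.11 and -1.74 on replicates 1 to 4 of the arrays labelled FVB/N. Replicate 4 was the highest Mdr1a-/- array for 6 of the 9 genes and replicate 1 for the other 3, while replicate 3 was the lowest for 8 genes. Among the arrays labelled FVB/N, replicate 3 was the lowest for 7. Replicate 3 of the Mdr1a-/- mice is also the one whose slide the protocols do not list, and without it all 10 probes were still called.

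The likeness of the members was measured as the mean absolute difference over the 8 arrays between a gene's log2 ratios, centred on their own mean, and the mean profile of the 9. Each member is itself part of that mean, which draws its own value nearer, unlike the values of genes outside the 9. Igtp (0.0919), Irgm2 (0.169) and Gbp6 (0.239) lay nearest to that mean profile. Irgm1 (0.481) and Gbp2 (0.469), the members with the smallest fold changes, lay farthest from it. Among 17733 genes outside all the GTPase and pathway lists used here, for which the median difference was 1.22, the nearest was Ms4a6d, a membrane protein of the MS4A family. At 0.160, Ms4a6d lay nearer than every member but Igtp. Then came Plekhs1 at 0.203, Apol7c at 0.253, Ifi202b at 0.260 and Zbp1 at 0.268. Ifi202b and Zbp1 encode interferon-induced proteins that bind nucleic acids, and Apol7c encodes an apolipoprotein L. These 5 genes were chosen for their likeness on the same arrays, so their log2 fold changes of 1.99 to 2.77 describe them and carry no test.

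**Figure D3:**
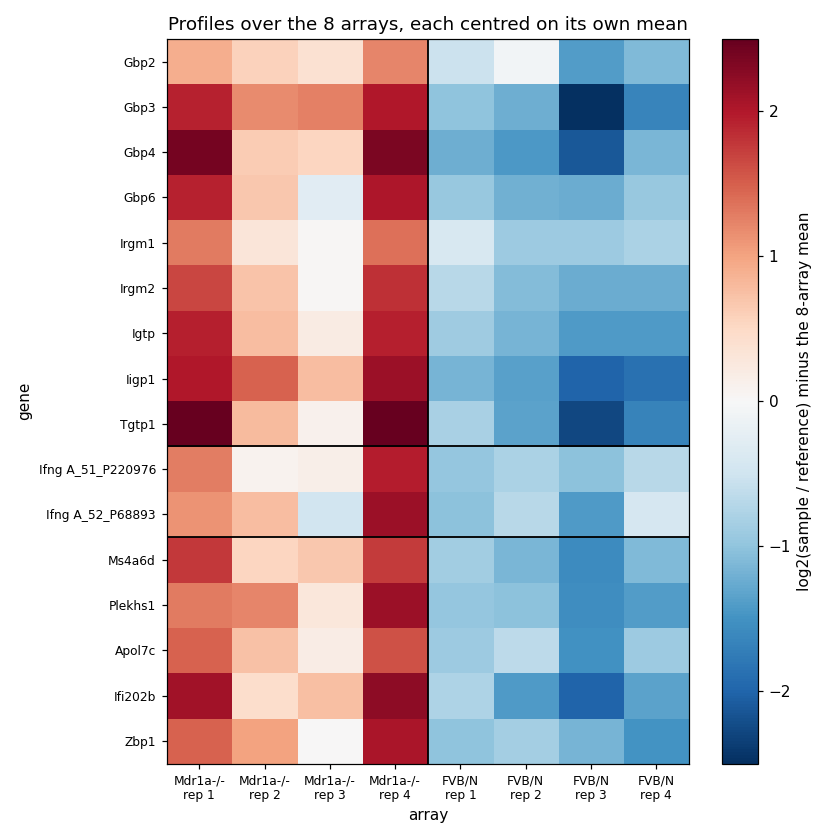
Log2(sample / reference) of each gene or probe minus its own mean over the 8 arrays (colour), with the 4 Mdr1a-/- high arrays left and the 4 arrays labelled FVB/N right. From top to bottom are the 9 members, both probes of Ifng, and the 5 genes nearest to the members' mean profile; the columns of Mdr1a-/- replicates 1 and 4 are the darkest red for most members.

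Scan day cut across the groups and changed how many probes passed. Day 1 held 1 Mdr1a-/- array (replicate 4), day 2 held 2 arrays of each group, and day 3 held 1 Mdr1a-/- array (replicate 3) and 2 labelled FVB/N. With scan day as a block, all 10 probes kept a positive log2 fold change, but 2 of them were called, Iigp1 at 2.95 ± 0.32 (SE, adjusted p = 0.0153 by limma) and Gbp3 at 3.07 ± 0.39 (SE, adjusted p = 0.0225 by limma). The others ran from 1.23 for Irgm1 to 2.65 for Gbp4, with adjusted p between 0.0554 for Igtp and 0.177 for the second Irgm1 probe. Within day 2 the log2 fold changes of the 10 probes were 1.46 to 3.32, and within day 3 they were 0.80 to 2.70, with Gbp6 the smallest there and Gbp3 the largest. Within day 2, limma called 0 of the 12 probes after adjustment, and 10 were higher at an unadjusted p under 0.05, as were 5.08% of all probes.

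Single arrays mattered for the weaker members. Gbp3, Gbp4, Igtp and Iigp1 were called whichever array was left out. Irgm2 was called in 5 of those 8 fits, Gbp2 and the brighter Tgtp1 probe in 3, both Irgm1 probes in 2 and Gbp6 in 1. With Mdr1a-/- replicates 1 to 4 left out in turn, 5, 9, 10 and 4 member probes were called. With replicates 1 to 4 of the arrays labelled FVB/N left out in turn, 6, 6, 4 and 4 were. The largest adjusted p in these fits was 0.132, for the second Irgm1 probe, and no log2 fold change of the 10 probes changed sign.

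The authors' deposited table covers the same comparison and gave a value for 11 of the 12 probes. It calls 10 of them higher, at log2 fold changes of 2.77 for Iigp1, 2.71 for Gbp3, 2.59 for the brighter Tgtp1 probe, 2.28 for Igtp, 2.09 for Gbp4, 1.61 for Irgm2, 1.51 for Gbp6, 1.36 and 1.25 for Irgm1 and 1.15 for Gbp2. For the second Tgtp1 probe the authors' deposited table gives 0.10 (adjusted p = 0.906). Each of these values is smaller than the one fitted here from background-corrected intensities.

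**Figure D4:**
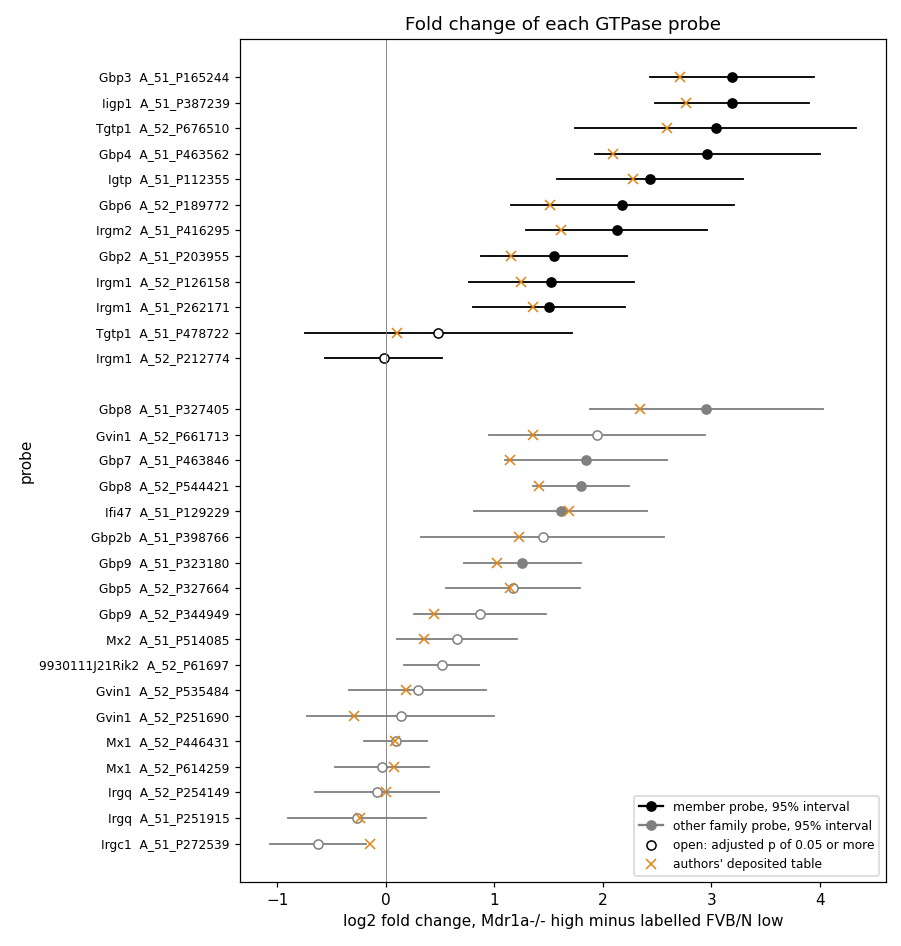
Log2 fold change, Mdr1a-/- high minus the arrays labelled FVB/N, of each member probe (black, upper block) and each probe of other family GTPases (grey, lower block) with its 95% interval; open points did not pass limma's adjusted test, and crosses are the authors' deposited table. The 10 called member probes lie between 1.50 and 3.19.

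Other genes of the GTPase families were measured on the same arrays. Of 18 further GBP, IRG, very large GTPase and Mx genes, 12 were measured by 18 probes, and 5 probes were called higher, 0 lower and 13 not (limma). At an unadjusted p under 0.05, 11 probes were higher and 1 was lower. By gene, 4 of 12 rose, and the median log2 fold change of the 12 was 0.91.

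The other GBPs that rose are Gbp7, Gbp8 and Gbp9. Gbp8 read 3.09, 1.28, 0.87 and 2.85 at its brighter probe in Mdr1a-/- mice, against -0.45, -0.98, -1.27 and -1.03 on the arrays labelled FVB/N, the same high replicates 1 and 4 as in its cluster neighbour Gbp4. Its log2 fold changes were 2.95 ± 0.48 and 1.80 ± 0.20 at 2 probes (SE, limma adjusted p = 0.0128 and 0.00238). Gbp7, of the chromosome 3 cluster, changed by 1.84 ± 0.33 (SE, adjusted p = 0.0203 by limma). Gbp9 changed by 1.26 ± 0.24 at its brighter probe (SE, adjusted p = 0.0256 by limma) and by 0.87 ± 0.27 at the other, which did not pass (SE, adjusted p = 0.145 by limma). Gbp5, which takes part in inflammasome activation, had a log2 fold change of 1.17 ± 0.28 (SE, adjusted p = 0.0587 by limma), and the groups did not overlap. Gbp2b had 1.45 ± 0.50 (SE, adjusted p = 0.190 by limma), with Mdr1a-/- replicate 3 at -0.97, below all 4 arrays labelled FVB/N.

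Ifi47, an IRG of the chromosome 11 cluster also called Irgd, rose by 1.61 ± 0.35 (SE, adjusted p = 0.0453 by limma). That call was lost on the deposited log2 values, with median centring and on Cy3 alone (limma adjusted p = 0.0504, 0.0619 and 0.0765), and it was kept in 1 of the 8 fits with an array left out. Gvin1, a very large interferon-inducible GTPase, gave 1.95 ± 0.44, 0.29 and 0.14 at 3 probes (SE for the first, limma adjusted p = 0.0506, 0.713 and 0.916). The authors' deposited table calls only the first of these probes higher, at 1.35. Without background correction that probe was called here too, at 1.56 (limma adjusted p = 0.0473). The Mx GTPases are known as antiviral targets of type I and III interferon. Mx2 had 0.66 ± 0.24 (SE, adjusted p = 0.233 by limma), with groups that did not overlap, and the 2 probes of Mx1 had 0.09 and -0.03. Irgq, an IRG relative that interferon is not known to induce, had -0.08 at its brighter probe and -0.27 at the other, neither called. Irgc1, known from testis, was above background on 0 Mdr1a-/- arrays and on 4 labelled FVB/N, where its Cy3 signal was at least 1.49-fold brighter, and its log2 fold change of -0.63 ± 0.20 was not called (SE, adjusted p = 0.151 by limma).

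Interferon gamma is the main inducer of both families. Of 17 genes that make and read it, all measured, 1 was called higher and 1 lower, with a median log2 fold change of 0.36, and 7 were higher and 1 lower at an unadjusted p under 0.05. Over all genes 10.1% were higher and 8.79% lower at that unadjusted p. Il12rb1, a chain of the interleukin 12 receptor, read 1.88, 1.13, 0.12 and 1.75 in Mdr1a-/- mice, against -0.78, -1.16, -0.76 and -0.41 on the arrays labelled FVB/N. It rose by 2.00 ± 0.36 (SE, adjusted p = 0.0207 by limma), and as in the GTPases replicate 3 was the lowest Mdr1a-/- array. Il18, a cytokine that drives interferon gamma production, fell by 1.25 on the log2 scale (SE 0.26, limma adjusted p = 0.0394). Socs1, which feeds back on the pathway, had 1.54 ± 0.39 (SE, adjusted p = 0.0769 by limma). The authors' deposited table calls Socs1 higher, at 1.30.

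Ifng itself was looked at after its values were seen. The brightest Ifng probe read 2.78, 2.42, 1.16 and 3.78 in Mdr1a-/- mice, against 0.62, 0.95, 0.23 and 1.22 on the arrays labelled FVB/N, so that Mdr1a-/- replicate 3 fell below the highest of the other group. Its log2 fold change of 1.78 ± 0.48 was not called (SE, adjusted p = 0.092 by limma), whereas the second Ifng probe was, at 1.73 ± 0.39 (SE, adjusted p = 0.047 by limma).

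In the type I and III interferon pathways 3 of 14 measured genes rose and 0 fell (limma), with a median log2 fold change of 0.11, and 5 were higher and 1 lower at an unadjusted p under 0.05. Ifnar2, a chain of the type I interferon receptor, rose by 1.17 ± 0.13 (SE, adjusted p = 0.00232 by limma). Usp18, which removes the ubiquitin-like protein ISG15, rose by 1.28 ± 0.19 (SE, adjusted p = 0.00792 by limma), and Irf9, which carries the type I signal to ISRE sites, rose by 0.97 ± 0.17 (SE, adjusted p = 0.0153 by limma). At the brightest probe of each of these 3 genes the Mdr1a-/- arrays did not overlap the arrays labelled FVB/N. A second Ifnar2 probe was called too, at 0.97 ± 0.14 (SE, adjusted p = 0.00668 by limma). A second Irf9 probe, above background on 2 Mdr1a-/- arrays and 3 labelled FVB/N, was not. It had 0.22 ± 0.35 with groups that overlapped (SE, adjusted p = 0.841 by limma).

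IRGs and GBPs reach a vacuole with the help of the proteins that attach LC3 and GABARAP to membranes. Of 16 measured genes of that machinery, limma called 0, and 1 was higher and 3 were lower at an unadjusted p under 0.05. The smallest p belonged to Gabarap, with a log2 fold change of -0.43 ± 0.12 (SE, adjusted p = 0.110 by limma), followed by Atg4b at -0.50 and Map1lc3a at -0.47 (limma adjusted p = 0.173 and 0.203). Without background correction Gabarap was called lower, at -0.40 (limma adjusted p = 0.0186). The authors' deposited table also calls Gabarap lower, at -0.60, and calls neither Atg4b nor Map1lc3a. Of 8 measured genes of protein prenylation and its carriers, which anchor Gbp2 and its relatives, 1 rose. That was Arhgdib, at 1.80 ± 0.18 (SE, adjusted p = 0.00201 by limma), a carrier of prenylated proteins that is found mainly in blood cells. The 2 next smallest p in that list were those of Fnta, a subunit shared by prenyl transferases, at -0.40, and Arhgdia, the widely expressed relative of Arhgdib, at -0.25 (limma adjusted p = 0.435 and 0.582).

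GBPs are also known to promote the inflammasomes that process interleukin 1 beta. Of 9 measured genes of that pathway, 1 rose, Il1b, by 2.59 ± 0.58 (SE, adjusted p = 0.0473 by limma), and 3 were higher at an unadjusted p under 0.05. Il1b read 4.13, 4.24, 2.94 and 3.52 in Mdr1a-/- mice, 1 of these near saturation, against 0.59, 2.97, 0.07 and 0.83 on the arrays labelled FVB/N, so the groups overlapped. Its call was lost on the deposited log2 values, on Cy3 alone and with a trended, robust prior (limma adjusted p = 0.0534, 0.0512 and 0.0723), and it was kept in 2 of the 8 fits with an array left out. Casp4, the sensor of cytosolic lipopolysaccharide, had 1.62 ± 0.41 (SE, adjusted p = 0.0784 by limma). The next smallest p was that of Nlrc4, with a log2 fold change of 0.35 (limma adjusted p = 0.305). The authors' deposited table calls Nlrc4 higher, at 0.39, and does not call Casp4.

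Some other calls outside the members were lost under other settings. Blocking on scan day ended those of Gbp7, Gbp9, the brighter Gbp8 probe, Ifi47, Il12rb1, Il18, Irf9, Usp18 and Il1b (limma adjusted p = 0.0676 to 0.193), while Ifnar2, Arhgdib and the other Gbp8 probe kept theirs. Gbp9 was lost with median centring and Usp18 on Cy3 alone (limma adjusted p = 0.0526 and 0.0580). Of the 8 fits with an array left out, Irf9 was called in 6, Gbp7 in 4, Gbp9 and Il12rb1 in 3 and Il18 in 2.

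Markers of other cell types were read on the same arrays, and most did not pass the adjusted test. The mean log2 ratio of 9 macrophage and monocyte markers was 1.14 to 1.61 on the Mdr1a-/- arrays, against -0.11 to 0.59 on the arrays labelled FVB/N, and 2 of the 9, C1qa and Ptprc, were called higher. At an unadjusted p under 0.05, 8 of the 9 were higher and 0 lower, where 10.1% of all genes were higher. Ptprc, which is not confined to these cells, was called at its brightest probe only. Its other probes had 0.72, 0.77 and 0.45 (limma adjusted p = 0.125, 0.190 and 0.471). Lyz2 was read in that list at its brightest probe, which was near saturation on all 8 arrays and had a log2 fold change of 0.26, while its other probe, near saturation on 0 arrays, had 2.21 ± 0.23 with groups that did not overlap (SE, adjusted p = 0.00216 by limma). The mean of 6 measured neutrophil markers was 1.19 to 2.72, against -1.15 to -0.34, with Retnlg, S100a8 and S100a9 called higher. At an unadjusted p under 0.05, 5 of the 6 were higher and 0 lower. The mean of 10 T and NK cell markers was -0.09 to 0.39, against -0.36 to -0.01, with Cd3d called higher, and a second probe of Nkg7 was called at 0.82 ± 0.15 (SE, adjusted p = 0.0209 by limma). Of these 10, 5 were higher and 0 lower at an unadjusted p under 0.05. In the T and NK cell list the lowest Mdr1a-/- mean was that of replicate 3, the array on which the GTPases were lowest too. Replicates 1, 2 and 4 had means of 0.39, 0.38 and 0.37 there, so replicate 2 was not set below 1 and 4 as in the GTPases. Replicate 3 was also the lowest Mdr1a-/- array in the B and plasma cell, adipocyte and exocrine pancreas lists. In the macrophage and neutrophil lists the lowest Mdr1a-/- array was replicate 2.

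Of 7 B and plasma cell markers limma called 0 (1 higher at an unadjusted p under 0.05), and their mean was 0.60 to 1.32 on the Mdr1a-/- arrays, against 0.35 to 0.76. Of 8 markers of colonocytes and goblet cells 3 fell, Slc26a3, Slc16a1 and the goblet cell product Fcgbp, with means of -0.83 to -0.27, against 0.18 to 0.57. At an unadjusted p under 0.05, 5 of them were lower and 1 was higher. The higher one was Car1, at 0.83 ± 0.22 with groups that did not overlap (SE, adjusted p = 0.0825 by limma). Guca2a was near saturation on 4 arrays of each group, which limits its fold. Limma called 0 of 8 general epithelial markers (3 lower at an unadjusted p under 0.05), with means of 0.07 to 0.28, against 0.01 to 0.55. The 3 lower ones were Cdh1, Epcam and Vil1, while Krt8, Krt18, Krt19 and Krt20 were near saturation on 3 or 4 arrays of each group, which limits their folds. Limma called 0 markers of endothelium, smooth muscle, fibroblasts, adipocytes, exocrine pancreas or enteric neurons and glia, where 2 fibroblast markers were higher and 2 smooth muscle, 3 adipocyte, 3 pancreas and 1 nerve marker lower at an unadjusted p under 0.05. Adipocyte markers averaged -0.69 to -0.05 on the Mdr1a-/- arrays, against -0.90 to 1.91. None of these lists had a marker that was above background on 0 arrays. The part of the cell makeup in the rise of the GTPases was not tested.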

How the data were processed

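The deposited array files hold, per the file headers, an intensity of foreground and one of local background for each spot and channel, and a log2 ratio. The submitters' processing notes name limma. The program used for image analysis was not given in the sources used here. Subtracting local background and fitting loess to Cy5 over Cy3 recomputed the deposited log2 values with differences of at most 3e-13, so these run reference over sample. They were used with the sign turned, as an alternative. The authors' deposited table holds log2 fold changes, t scores, p-values and adjusted p-values. GEO's description of that table says log10, but its values are read as log2 here.

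Here limma 3.58.1 (R 4.3.3) was run on the intensities with normexp (offset 50) and loess within arrays (control spots at weight 0), spots of a probe were averaged, and groups were compared with lmFit and eBayes over all 41174 probes, two-sided, with Benjamini-Hochberg adjustment and a threshold of 0.05. Each array holds RNA of 1 mouse, and 4 mice per group limit the precision. Above background means a Cy3 net signal higher than the 95th percentile of the 314 negative controls. A fold written as "at least" is a lower bound, from Cy3 values after loess and Aquantile, and may carry dye bias, since the dyes were not swapped.

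Probes were named through accessions (22072), current symbols (6280) or older symbols (4211), and 8611 kept the files' names. A gene was read at its brightest probe over the 8 arrays. The members and lists were chosen with earlier results of these data known. The rule for named genes takes every probe of the members, of the other family GTPases and of Abcb1a, the 3 smallest p of each pathway list, and the 5 genes nearest to the members' profile among those above background on at least 4 arrays. Ifng and the cell type markers given by name were picked after their values were seen. Promoters were searched on both strands. The array build was not given in the sources used here, so probes have no coordinates. Scan days were read from the deposited files. The fit was tested on simulated data. Alternatives covered background, normalization, dim probes, weights, scan day, replicate number and each array left out. Figures were drawn with matplotlib 3.10.9.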

Additional observations from a re-analysis of the deposited data

Results flagged for a closer look

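One value stood apart from the others of its group. On the third Irgm1 probe, Mdr1a-/- replicate 2 read -0.77, while the nearest of the other Mdr1a-/- arrays read -0.09 and the farthest 0.00, so that the gap was 0.881 of the group's whole range. That probe was above background on 0 arrays. It was 1 of 102 groups of 4 arrays looked at in this way, over 51 probes, and chance alone would single out about 1 in 20.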

How the results depend on the processing

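Of 966 values of named probes under an alternative, 793 kept their sign and their side of the threshold, 135 lost the call, 17 gained one and 21 changed sign, of which 0 were called in limma. The sign changes fell on 6 probes that were not called. The third Irgm1 probe read 0.00047 on the deposited log2 values, 0.0656 without background correction, 0.0588 on Cy3 alone, 0.0100 with scan day as a block and 0.0681 within scan day 2. The second Mx1 probe read 0.0013, 0.446 and 0.229 on the deposited values, on Cy3 alone and within scan day 2. Irgq read 0.0208 with median centring at its brighter probe and 0.218 within scan day 2 at the other, and Nlrc4 read -0.0363 on Cy3 alone. Over the fits with an array left out, the third Irgm1 probe ran from -0.187 to 0.161, the second Mx1 probe from -0.142 to 0.149, the brighter Irgq probe from -0.256 to 0.121 and a dimmer Gvin1 probe from -0.125 to 0.465. The number of member probes called was 8 to 10 under other background corrections, normalizations, weights, priors and filters, with 8 or 9 member genes called. With scan day as a block 2 probes and 2 genes were called, with 133 probes higher and 115 lower over the array. Within scan day 2, limma called 0 member probes, 0 member genes, 0 probes higher and 0 lower. Array weights raised the calls over the array to 1081 higher and 939 lower. Leaving out an array, 4 to 10 member probes and 4 to 9 member genes were called, with 250 to 783 probes higher and 247 to 675 lower over the array. The replicate block left 7 member probes called, and 310 higher and 286 lower over the array. The deviations of arrays with the same number correlated weakly at most (0.064, 0.111, 0.026 and -0.035). Of the 4, 0 were closest to their own number, but so few arrays cannot show whether the numbers pair the mice. The causes of these changes were not tested. Igtp and Iigp1 were near saturation on 2 Mdr1a-/- arrays, and Gbp4, Gbp6 and the third Irgm1 probe were near background on some arrays, which limits their folds.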
